A study of Homo sapiens with 12 samples.

Results

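The BCL2 family decides whether a cell keeps its mitochondria intact or opens them and dies by apoptosis. The 10 genes described here are 3 anti-apoptotic members (BCL2, MCL1 and BCL2A1), 2 effectors (BAX and BAK1) and 5 BH3-only members (BCL2L11, BBC3, PMAIP1, BID and BAD). They were taken by symbol from the 56266 genes of the RNA-Seq tables. All 10 symbols were found, and 9 of them passed the filter on low values, because BCL2A1 (ENSG00000140379, chromosome 15 from 80253234 to 80263538, minus strand) was listed at 0 in every library.

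Anti-apoptotic proteins hold the effectors and the BH3-only proteins in check at the mitochondrial outer membrane. Effectors, once released, form pores that let cytochrome c out, and cytochrome c then starts the caspase cascade through APAF1. BH3-only proteins are the sensors of the family and are induced or activated by growth factor loss, DNA damage and stress. MCL1 is required for the survival of blood stem and progenitor cells, and BCL2L11 (BIM) and BBC3 (PUMA) set much of the cell death that follows cytokine withdrawal.

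RNA-Seq was analysed in 10 libraries of the human embryonic stem cell line H1, an established line, in 5 groups of 2. One group was undifferentiated hESCs with the genotype label GATA2-/-. The other groups were hemogenic endothelium (HE) and hematopoietic progenitor cells (HPC), each from wildtype (WT) H1 and from H1 labelled GATA2-/-. Differentiation was on OP9 mouse stromal cells, HE was sorted as CD34+CD31+CD43- on day 8 and HPC as CD34+CD43+ on day 9, after enrichment of CD34+ cells on magnetic beads and staining that included TRA-1-85, a human surface antigen. The GATA2-/- line is 1 clone, made with TALENs and carrying a neomycin cassette, driven by the PGK promoter, in exon 3 of both GATA2 alleles. WT hESCs were not analysed here, so every comparison with hESCs is within the GATA2-/- line. In the study's methods hESCs were grown on Matrigel in a stem cell medium and were digested rather than sorted. Stage thus cannot be told apart from culture and handling in the comparisons with hESCs. In the file headers, replicate 2 of each HE and HPC group carries a common tag that replicate 1 lacks, and no source says what it marks. The labels do not say whether the replicates came from separate cultures, so p-values measure the spread between these libraries, which may be technical.

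The values were TPM, a level per transcript length that is scaled to about the same sum in every library. TPM keeps no read number, so depth is unknown here and counting intervals are not given. The study's methods describe barcoded libraries with short single-end reads from a MiSeq, and they give no read number per library. The number of genes at 1 TPM or more ranged from 16004 to 17335 among the libraries. Differences were computed on log2(TPM + 1) with limma over 21543 genes in 1 fit of all libraries, with Benjamini-Hochberg adjustment over all of them. A fold change on this scale understates the change of a low gene. In bulk RNA, a lower value can mean fewer cells of a type or less RNA per cell, and these cannot be told apart.

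GATA2, the targeted transcription factor (ENSG00000179348), lies at 128198270 to 128212044 of chromosome 3 (GRCh37, minus strand). Its TPM was 2.05 and 5.54 in the hESC libraries. The WT HE libraries had 107 and 78.0, and those labelled GATA2-/- had 111 and 94.1. The WT HPC libraries had 290.1 and 204, and those labelled GATA2-/- had 112 and 83.8. The HPC groups did not overlap and the HE groups did, and neither difference passed the test (log2 difference 0.16 in HE, adjusted p = 1, and -1.32 in HPC, adjusted p = 0.296, limma). Any transcript of the disrupted locus adds to a value per gene, so GATA2 RNA is no check of the labels. The word "KO-labelled" below refers to the label.

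The stages matched their markers. POU5F1, the core pluripotency factor, was at 3332 and 2855 TPM in hESCs and at 3.02 or below elsewhere. CDH5, the endothelial cadherin, lay between 514 and 614 in HE and between 53.9 and 137 in HPC. SPN, which encodes CD43, lay between 1.76 and 8.81 in HE and between 98.0 and 108 in HPC, in keeping with the sort. PTPRC (CD45), the general leukocyte marker, was at 3.09 or below in all 10 libraries.

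BAX was the most abundant member in all 10 libraries, with TPM between 179 and 392. BAX (ENSG00000087088) lies on chromosome 19 from 49458072 to 49465055 on the plus strand of GRCh37. MCL1 (ENSG00000143384, chromosome 1 from 150533371 to 150552214, minus strand) came next, between 104 and 198. BCL2 (ENSG00000171791, chromosome 18 from 60790579 to 60987361, minus strand) was the least abundant detected member in 9 of 10 libraries, between 0.63 and 4.38, and PMAIP1 was lower in KO-labelled HE replicate 2. MCL1 thus stood 30.7 to 94.4 times above BCL2 in hESC and HE libraries and 157 to 280 times above it in HPC libraries.

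**Figure D1:**
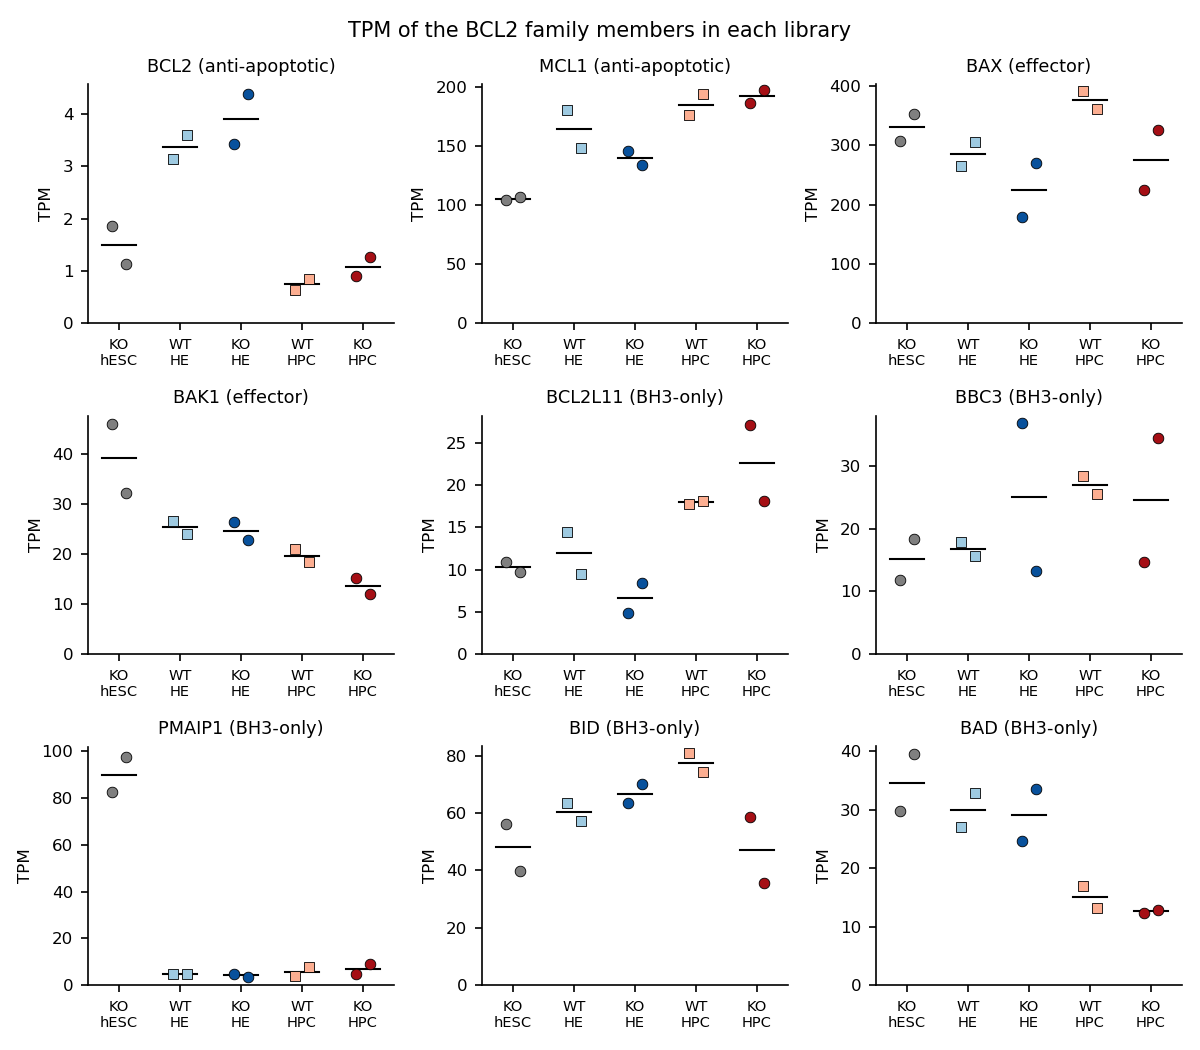
TPM (y axis, from 0, a scale of its own in each panel) of the 9 detected members in the 5 groups (x axis); each point is 1 library, squares are WT, circles are KO-labelled, and the bar is the mean of 2. PMAIP1 sat at 82.6 and 97.4 in hESCs and between 3.46 and 8.96 in the 8 other libraries.

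BAK1, the second effector (ENSG00000030110, chromosome 6 from 33540324 to 33548070, minus strand), lay between 12 and 46.1 TPM. The ratio of BAX to BAK1 TPM was 6.68 and 10.9 in the hESC libraries, 6.78 to 12.7 in HE and 14.7 to 27.2 in HPC. Among the BH3-only genes, BID (ENSG00000015475, chromosome 22 from 18216904 to 18257536, minus strand) was the most abundant in every HE and HPC library, with 32.4% to 54.8% of the summed BH3-only TPM. BID links death receptors to mitochondria, since caspase-8 cleaves it into its active form. In hESCs PMAIP1 (NOXA, the BH3-only partner of MCL1) held that place, with 43.2% and 47.6%.

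**Figure D2:**
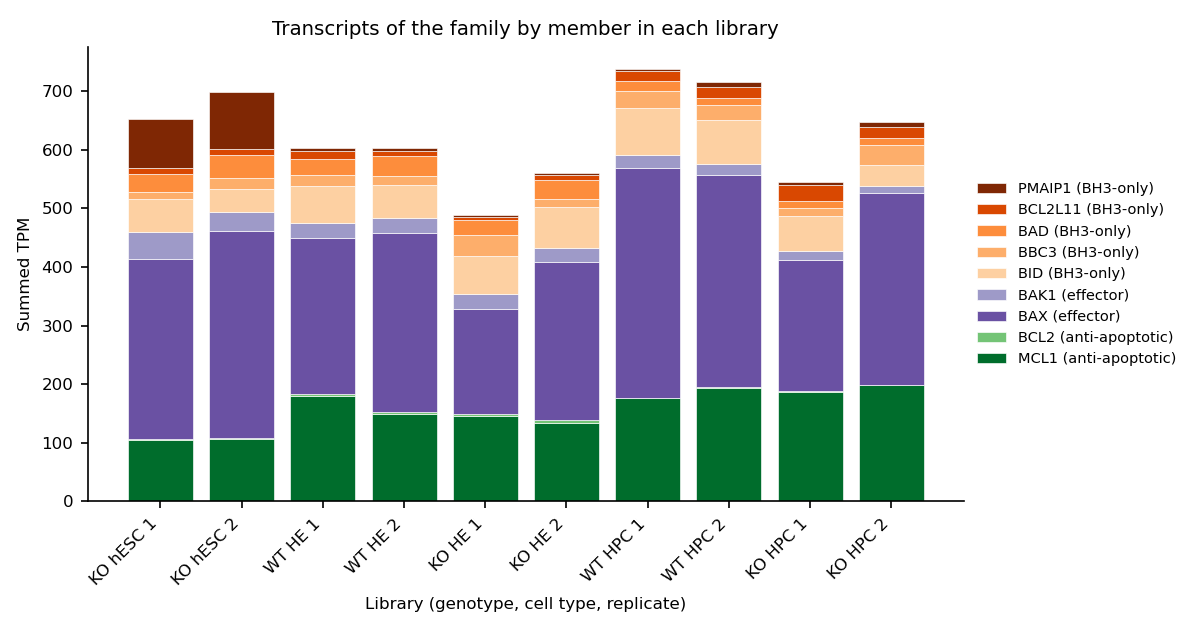
Summed TPM of the 9 detected members (y axis, from 0) in each of 10 libraries (x axis), stacked by member, with anti-apoptotic genes in green, effectors in purple and BH3-only genes in orange to brown; each bar is 1 library, with no error bar. BAX and MCL1 make up most of every bar, and the PMAIP1 segment is visible mainly in hESCs.

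Promoter windows from RefSeq (GRCh38.p14, 250 bases before to 50 after a start) were found for 9 of the 10 members, in 14 windows; MCL1 had none in the table. The stretches below precede a RefSeq start of 3 members whose levels are described below, and none of their bases is exonic in the GRCh37 annotation. The BCL2L11 stretch matched GRCh37 at 111878241 to 111878340, which is inside the gene as GENCODE bounds it, downstream of its first start. Capitals mark the motif, searched on both strands. In PMAIP1 it is GGGCGG, the GC box bound by SP1, which is present 4 times. In BCL2L11 it is GTAAACA, the core site of FOXO factors. In BAX it is CACGTG, the E-box bound by MYC and USF factors.
PMAIP1 (chr18:59899746-59899995, plus strand): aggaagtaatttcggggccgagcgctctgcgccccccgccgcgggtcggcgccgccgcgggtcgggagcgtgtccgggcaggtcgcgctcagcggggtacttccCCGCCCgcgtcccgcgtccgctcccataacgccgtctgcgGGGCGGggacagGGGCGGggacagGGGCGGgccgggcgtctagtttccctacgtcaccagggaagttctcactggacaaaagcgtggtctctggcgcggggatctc
BCL2L11 (chr2:111120664-111120763, plus strand): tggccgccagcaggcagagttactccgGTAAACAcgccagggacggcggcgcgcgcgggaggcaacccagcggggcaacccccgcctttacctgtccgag
BAX (chr19:48954715-48954810, plus strand): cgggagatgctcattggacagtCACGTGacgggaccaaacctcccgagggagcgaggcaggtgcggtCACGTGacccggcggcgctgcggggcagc

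The BCL2L11 site began 223 bases before that RefSeq start, and 3.42% of 35116 promoter windows held this motif. The BAX window had 4 copies of CACGTG, of which 2 are shown, against 7.26% of windows with at least 1 copy and 5 windows (0.0142%) with at least 4. GGGCGG was common, in 45% of windows. The letters AGATAA and TGATAA, 2 forms of the GATA site, were in none of the 14 windows and in 10.3% and 7.53% of all windows. A match is a description of letters, and binding was not measured.

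From HE to HPC, populations sorted separately on day 8 and day 9, BCL2 and BAD fell, BAK1 fell by less, and BCL2L11 rose. These 4 of 9 tested members passed when the stage change was averaged over both genotypes (4 libraries against 4), where 20.4% of all genes tested passed (8.52% higher and 11.9% lower). The same 4 members were those whose HE and HPC libraries did not overlap, as was so for 23% of all genes. The averaged comparison was added after the data were seen. Within WT 2 members passed, BCL2 and BAD, against 9.91% of all genes, and within the KO-labelled line 2 passed, BCL2L11 and BAD, against 12.7%. When any 1 replicate was left out, no member passed within WT and at most 1 within the KO-labelled line, while BCL2, BAD and BCL2L11 passed the averaged comparison each time (highest adjusted p = 0.0274, 0.0174 and 0.0387, limma). Between libraries with the header tag, the log2 differences in WT and KO-labelled cells were -1.32 and -1.25 for BCL2, -1.25 and -1.32 for BAD, 0.86 and 1.03 for BCL2L11 and -0.37 and -0.88 for BAK1. Between those without it they were -1.35 and -1.22 for BCL2, -0.64 and -0.94 for BAD, 0.29 and 2.26 for BCL2L11 and -0.33 and -0.75 for BAK1, so each gene had 1 direction with and without the tag. The members' median change was 0.19 in WT and 0.02 in the KO-labelled line on the log2 scale, beside -0.01 and 0.03 over all genes. In the KO-labelled line 43.2% of called genes were higher in HPC, and 53.6% were when TPM was rescaled without mitochondrial genes, which moved the median of all genes from 0.03 to 0.13.

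BCL2, the founding anti-apoptotic gene, had TPM of 3.15 and 3.61 in WT HE and 3.42 and 4.38 in KO-labelled HE. In HPC it had 0.63 and 0.85 in WT and 0.90 and 1.26 in KO-labelled cells. All 4 HE libraries were above all 4 HPC libraries, and mean TPM was 4.57 times lower in HPC in WT and 3.61 times lower in the KO-labelled line. The log2 difference was -1.28 averaged over genotypes (standard error 0.25, adjusted p = 0.00627, limma). It was -1.33 in WT (adjusted p = 0.0455) and -1.23 in the KO-labelled line (adjusted p = 0.051). The WT call was lost with the replicate number as a block (adjusted p = 0.0543), a pseudocount of 0.1 (0.0633), no filter (0.0967), the comparison's own libraries (0.121), quantile normalization (0.0589) and rescaling without mitochondrial genes (0.052). HPC values lay near the filter of 1 TPM, and the number of reads behind them is unknown.

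BAD, a BH3-only protein held inactive by survival-factor phosphorylation (ENSG00000002330, chromosome 11 from 64037302 to 64052176, minus strand), also separated the stages without overlap. It had 27.0 and 32.9 TPM in WT HE and 24.6 and 33.6 in KO-labelled HE. It had 17.0 and 13.2 in WT HPC and 12.4 and 12.9 in KO-labelled HPC. The log2 difference was -0.95 in WT (standard error 0.24, adjusted p = 0.0434), -1.13 in the KO-labelled line (adjusted p = 0.0177) and -1.04 averaged (adjusted p = 0.00297, limma). The WT call was lost with no filter (adjusted p = 0.0655), own libraries (0.148), quantile normalization (0.0814) and no trend (0.0716), and the KO-labelled call with own libraries (0.105). BAD shares 404 exonic bases, 23.7% of its exons, with GPR137 on the other strand, and the library kit does not keep strand, so reads of the pair cannot be told apart there. GPR137 itself had a log2 difference of -0.57 in WT (adjusted p = 0.331) and -0.52 in the KO-labelled line (adjusted p = 0.333).

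BCL2L11, whose protein BIM binds every anti-apoptotic member (ENSG00000153094, chromosome 2 from 111876955 to 111926021, plus strand), moved the other way. It had 14.4 and 9.5 TPM in WT HE and 4.89 and 8.41 in KO-labelled HE. It had 17.8 and 18.1 in WT HPC and 27.2 and 18.2 in KO-labelled HPC, again with no overlap between the stages. The log2 difference was 1.64 in the KO-labelled line (standard error 0.32, adjusted p = 0.0117), 0.58 in WT (adjusted p = 0.358) and 1.11 averaged (adjusted p = 0.00888, limma). The KO-labelled call was lost with own libraries (adjusted p = 0.138, limma). It was also lost without KO-labelled HE replicate 1 (log2 difference 1.30) or KO-labelled HPC replicate 1 (1.36). The stage changes of the 2 genotypes were not shown to differ (interaction log2 1.06, standard error 0.46, 95% interval 0.03 to 2.10, adjusted p = 0.835, limma). The antisense transcript MIR4435-2HG, which shares 727 exonic bases (10.8% of BCL2L11 exons), also rose, by 1.11 in WT (adjusted p = 0.0411) and 1.07 in the KO-labelled line (adjusted p = 0.0396). Its part in the BCL2L11 value was not tested.

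BAK1 had 26.6 and 24.1 TPM in WT HE and 26.4 and 22.9 in KO-labelled HE. It had 20.9 and 18.4 in WT HPC and 15.3 and 12 in KO-labelled HPC. The stages did not overlap, and the averaged log2 difference was -0.58 (standard error 0.16, adjusted p = 0.0367, limma). With 1 replicate left out at a time, the adjusted p reached 0.108, and it was 0.0651 with TPM rescaled without mitochondrial genes. Neither genotype alone passed, at -0.35 in WT (adjusted p = 0.451) and -0.81 in the KO-labelled line (adjusted p = 0.0538). BAK1 shares 14.8% of its 40-base stretches with the pseudogene BAK1P1 on chromosome 20, whose TPM lay between 0.58 and 2.62. Reads of the study could be shorter than 40 bases, and sharing over shorter stretches was not counted.

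The 5 other tested members did not pass between HE and HPC in these 3 comparisons. MCL1, the short-lived anti-apoptotic protein, had 181 and 149 TPM in WT HE, 146 and 134 in KO-labelled HE, 176 and 194 in WT HPC and 187 and 198 in KO-labelled HPC. One WT HE library overlapped the HPC range, and the averaged log2 difference was 0.31 (adjusted p = 0.0603, limma), which passed in 2 of 4 alternatives. In the KO-labelled line the libraries did not overlap, and the log2 difference of MCL1 was 0.45 (adjusted p = 0.0761, limma), which passed in 2 of 8 alternatives (lowest adjusted p = 0.0119). MCL1 shares 328 exonic bases (5.27% of its exons) with ADAMTSL4-AS1 on the same strand, which was at 1.16 TPM in KO-labelled HPC replicate 2 and listed at 0 in the other libraries. The averaged differences of BAX (0.35, adjusted p = 0.181), PMAIP1 (0.39, adjusted p = 0.357), BBC3 (0.34, adjusted p = 0.57) and BID (-0.09, adjusted p = 0.792) had 95% intervals that included 0, and the values of HE and HPC overlapped in each of these genes.

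**Figure D3:**
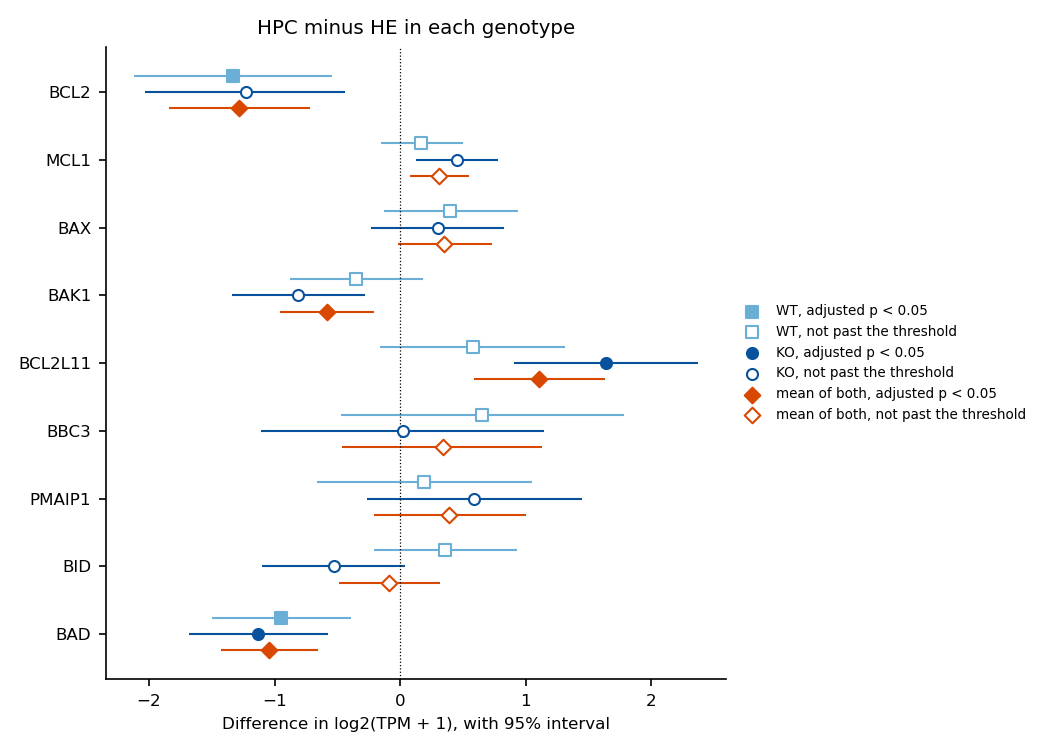
Difference in log2(TPM + 1) between HPC and HE (x axis, bars are 95% intervals from limma) for the 9 detected members (y axis) in WT (squares), the KO-labelled line (circles) and averaged over both (diamonds); filled symbols passed adjusted p under 0.05. BCL2 and BAD lie left of 0 in all 3 comparisons, and BCL2L11 lies right of 0 in all 3.

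Markers of other cell types also differed between these separately sorted populations, whose purity the study's methods say was checked by FACS. The 10 endothelial markers summed to 3861 to 4698 TPM in the 4 HE libraries and 992.8 to 1295 in the 4 HPC libraries, with EGFL7 the most abundant in all 8. The 8 mesenchymal and stromal markers summed to 410 to 718 in HE and 101 to 237 in HPC, with COL1A2 the most abundant in all 4 HE libraries, and LUM was at 0.71 or below in HPC. COL1A1, COL1A2 and COL3A1 made up most of this sum, and PDGFRB of the same list was higher in HPC (12.5 to 15.6 TPM) than in HE (2.99 to 8.24). The 10 erythroid markers summed to 24.6 to 99.6 in HE and 4928 to 16240 in HPC, where HBG2 or HBE1 was the most abundant. In HPC they were higher in replicate 2 than in replicate 1 of each genotype (14260 against 4928 in WT, 16240 against 7726 in the KO-labelled line). The part of such cells in the family's differences was not tested.

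Between genotypes, none of the 9 tested members passed in HE or in HPC. In HE 0.0186% of all genes passed and in HPC 0.0603%, so few genes of any kind were called (4 and 13). At an unadjusted p under 0.05, 1 member was found in each, BCL2L11 in HE and BID in HPC, where 4.85% and 8.94% of all genes lay under that value. The 2 genotypes did not overlap for 3 of 9 members in HE (30.3% of all genes) and 6 of 9 in HPC (32.6% of all genes). For the difference of the genotype effect between the stages, 2 of 9 members (BCL2L11 and BID) were under an unadjusted p of 0.05, against 5.95% of all genes, and 0% of genes and 0 members passed the correction. Averaged over both stages, 0 members and 0.0232% of all genes passed. The median over the members was -0.05 in HE and -0.23 in HPC, beside -0.01 and 0.05 over all genes.

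BCL2L11 was lower in all 4 pairs of KO-labelled and WT HE libraries, at 4.89 and 8.41 against 14.4 and 9.5 TPM. Its log2 difference was -0.77 (95% interval -1.51 to -0.04, adjusted p = 0.981, limma), or -1.11 to -0.43 with 1 replicate left out. In HPC it was higher in all 4 pairs, at 27.2 and 18.2 against 17.8 and 18.1, but 1 KO-labelled library differed from the WT libraries by under 0.5 TPM. The log2 difference there was 0.29 (95% interval -0.44 to 1.02, adjusted p = 0.817, limma), or 0.01 to 0.57 with 1 replicate left out.

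Markers of blood cells were lower in KO-labelled than in WT HE as well. The 10 pan-hematopoietic markers summed to 344 and 271 TPM in WT HE and 216 and 125 in KO-labelled HE, and the 10 erythroid markers to 99.6 and 68.4 against 29.0 and 24.6. None of these 20 genes passed; the most abundant pan-hematopoietic gene was RUNX1 in WT HE replicate 1 and VAV1 in the other HE libraries. GATA1, an erythroid and megakaryocyte factor named after its values were seen, was at 18.4 and 12.1 TPM in WT HE and 2.78 and 1.37 in KO-labelled HE. Of 6 megakaryocyte markers, PF4 fell (37.3 and 32.1 against 3.66 and 4.70 TPM, log2 difference -2.79, adjusted p = 0.0249, limma). The PF4 call was lost with the comparison's own libraries and when any 1 HE replicate was left out. The 10 endothelial markers went the other way in sum, with 3861 and 4182 TPM in WT HE and 4698 and 4277 in KO-labelled HE. CD34 was at 641 and 605 TPM in WT HE and 1060 and 925 in KO-labelled HE. None of the endothelial markers passed, and CD34 did not. The part of any of these cell types in the BCL2L11 values was not tested.

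BID was at 63.6 and 70.0 TPM in KO-labelled HE against 63.5 and 57.3 in WT HE, a log2 difference of 0.14 (adjusted p = 1). In HPC it was at 58.6 and 35.8 in KO-labelled cells against 81.0 and 74.3 in WT. Both KO-labelled HPC libraries were below both WT libraries, and the log2 difference was -0.75 (standard error 0.25, 95% interval -1.32 to -0.18, adjusted p = 0.421, limma). Mean TPM was 1.65 times lower, which did not pass the correction. With 1 replicate left out, the log2 difference of BID in HPC ran from -1.10 to -0.40. BID shares 40-base stretches with many other genes, at most 0.614% of its stretches with any other gene (ENSG00000286130). The part of such reads in the BID values was not tested.

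The effectors were also lower in all 4 pairs in HPC. BAX was at 225 and 327 TPM in KO-labelled HPC against 392 and 362 in WT, a log2 difference of -0.48 (95% interval -1.01 to 0.06, adjusted p = 0.602, limma). That difference ran from -0.75 to -0.21 with 1 replicate left out. BAK1 differed by -0.50 (95% interval -1.03 to 0.02, adjusted p = 0.576, limma). Transcripts of the mitochondrial genome took 15.1% and 14.8% of TPM in KO-labelled HPC and 8.66% and 9.61% in WT HPC, which lowers every other TPM. With TPM rescaled without them the differences in HPC were -0.38 for BAX, -0.42 for BAK1 and -0.66 for BID.

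The summed levels of 2 lists of blood cell markers were also lower in KO-labelled HPC, while the erythroid sums given above overlapped. The 8 myeloid and macrophage markers summed to 632.5 and 854.4 TPM in WT HPC and 388.5 and 561.2 in KO-labelled HPC. The 10 pan-hematopoietic markers, led by ITGA2B, summed to 2207 and 2196 against 1668 and 2027, and neither list's sums overlapped between genotypes. Of the 6 megakaryocyte markers, PF4 was lower (199.6 and 307 against 76.5 and 99.5 TPM) and ITGB3 higher (171 and 161 against 218 and 203). None of the genes in these 3 lists passed the test. The part of such cells in the BAX, BAK1 and BID values was not tested.

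No difference passed for the anti-apoptotic genes. The log2 difference of MCL1 was -0.23 in HE (95% interval -0.55 to 0.10) and 0.05 in HPC (95% interval -0.27 to 0.38). That of BCL2 was 0.16 in HE (95% interval -0.63 to 0.95) and 0.25 in HPC (95% interval -0.54 to 1.05). The HE intervals of 7 of 9 members and the HPC intervals of 2 of 9 lay within 1 log2 unit of 0, and the other intervals extended past a 2-fold difference. BCL2L1 (BCL-XL), an anti-apoptotic gene of chromosome 20, was at 86.6 and 75.9 TPM in WT HE against 147 and 94.5 in KO-labelled HE. In HPC it was at 103 and 111 in WT against 160 and 163 in KO-labelled cells (log2 difference 0.59, adjusted p = 0.534, limma).

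**Figure D4:**
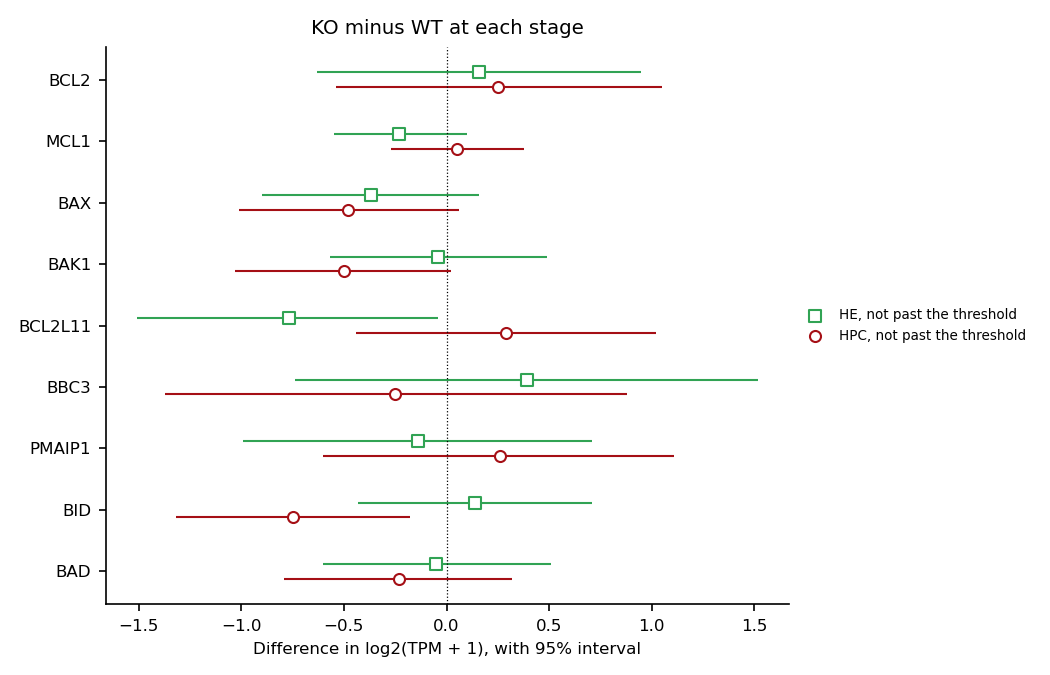
Difference in log2(TPM + 1) between KO-labelled and WT cells (x axis, bars are 95% intervals from limma) for the 9 detected members (y axis) in HE (squares) and HPC (circles); no member passed adjusted p under 0.05. BCL2L11 in HE and BID in HPC are the 2 whose interval leaves out 0.

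BBC3 (PUMA, a stress-induced sensor; ENSG00000105327, chromosome 19 from 47724079 to 47736023, minus strand) differed by more than 2-fold between the replicates of both KO-labelled differentiated groups. It was at 36.8 and 13.3 TPM in KO-labelled HE, 14.7 and 34.5 in KO-labelled HPC, 17.9 and 15.7 in WT HE, 28.5 and 25.5 in WT HPC and 11.9 and 18.4 in hESCs. The 2 highest libraries, KO-labelled HE replicate 1 and KO-labelled HPC replicate 2, were also the 2 highest of 10 for DDIT3, ATF4, ATF3 and SESN2, genes of the integrated stress response chosen from the lists after their values were seen. DDIT3 was at 44 and 65.1 TPM in these libraries and between 3.46 and 34.9 in the others. SESN2 was at 29.6 and 29.4 against 8.85 to 21.0, and ATF3 at 35.4 and 30.8 against 7.94 to 21.1. ATF4, at 724 and 754 against 421 to 692, lay close to the next library. The same libraries were not the 2 highest for TRIB3 (120 and 36.2 TPM, against 5.59 to 45.7 in the others) or CHAC1 (48.9 and 12.7, against 2.29 to 32.3), which belong to the same response. The part of such a response in the BBC3 values was not tested.

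From KO-labelled hESCs to KO-labelled HE, PMAIP1 fell the most of the family, and it was the 1 member of 9 to pass, against 30% of all genes tested. PMAIP1 (ENSG00000141682, chromosome 18 from 57567228 to 57571537, plus strand) went from 82.6 and 97.4 TPM in hESCs to 4.76 and 3.46 in HE and 4.86 and 8.96 in HPC. Mean TPM was 21.9 times lower in HE (log2 difference -4.16, standard error 0.38, adjusted p = 7.58e-05, limma). It was 13 times lower in HPC (log2 difference -3.57, standard error 0.38, adjusted p = 0.000179). WT HE and WT HPC, at 4.54 to 4.64 and 3.68 to 7.72, lay within the range of the KO-labelled HE and HPC libraries.

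Against hESCs, KO-labelled HPC differed in 5 of 9 members, where 30.6% of all genes passed (14.2% higher and 16.4% lower). Besides PMAIP1, BAK1 fell by 1.45 on the log2 scale (standard error 0.23, adjusted p = 0.00182) and BAD fell by 1.37 (standard error 0.24, adjusted p = 0.00301). MCL1 rose by 0.86 (standard error 0.14, adjusted p = 0.0022), from 104 and 107 TPM to 187 and 198, and BCL2L11 rose by 1.05 (standard error 0.32, adjusted p = 0.0378, limma). The BCL2L11 call was lost without either hESC replicate (adjusted p = 0.125 and 0.162) or without HPC replicate 1 (0.19), and it was lost with no filter (0.0575) and with the comparison's own libraries (0.0825). In HE the same 4 genes lay at -0.63 for BAK1, -0.25 for BAD, 0.40 for MCL1 and -0.60 for BCL2L11, with adjusted p of 0.0728, 0.505, 0.0644 and 0.21. These comparisons share the hESC libraries.

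The hESC libraries carried the pluripotent program, with the 8 pluripotent markers summing to 6278 and 5522 TPM, led by POU5F1, against 224.7 to 376.7 in the other libraries. There the most abundant of the 8 was LIN28A, at 97.1 to 244, and NANOG was at 0.56 or below.

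Around the family, 114 other apoptosis-pathway genes were followed in 10 lists, of which 110 genes were tested. None passed between genotypes in HE or in HPC. From HE to HPC, 19 passed in WT (11 higher, 8 lower, or 17.3% of those tested, beside 9.91% of all genes) and 18 in the KO-labelled line (11 higher, 7 lower, or 16.4%, beside 12.7%). From hESCs, 54 passed in HE (38 higher, 16 lower, or 49.1%, beside 30% of all genes) and 55 in HPC (37 higher, 18 lower, or 50%, beside 30.6%). The counts of the single lists below are read beside these shares over all genes.

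For the other members of the family, the share called was near or below that of all genes in the comparisons given next, except for the 2 tested anti-apoptotic genes. Between hESC and HE, BNIP3 and BNIP3L, mitochondrial receptors for mitophagy, rose by 3.44 and 1.97 on the log2 scale (adjusted p = 0.00119 and 0.000636), the 2 called of 7 tested in the pro-apoptotic list. BOK, an effector-like member, fell from HE to HPC by 1.42 in WT and 2.71 in the KO-labelled line (adjusted p = 0.0247 and 0.00104), the 1 called in each. In the anti-apoptotic list BCL2L2 (BCL-W) rose by 1.13 in HE against hESC (adjusted p = 0.0338), the 1 called of 2 tested, and both BCL2L2 and BCL2L1 rose in HPC.

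Downstream of the mitochondria, 2 of 16 apoptosome and caspase genes passed between HE and HPC in each genotype. CASP6 fell by 1.25 in WT (adjusted p = 0.0407), and DFFA, the inhibitor of the apoptotic nuclease, fell by 0.82 in the KO-labelled line (adjusted p = 0.0233). From hESC to HE, 8 passed, among them APAF1, which rose by 1.27, and CYCS (cytochrome c), which fell by 1.33 (adjusted p = 0.0174 and 0.00302). Of 7 inhibitors of apoptosis, none passed between HE and HPC in WT and NAIP rose in the KO-labelled line (1.08, adjusted p = 0.0495).

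Of 15 death receptor genes, 9 were higher and 1 lower in HE than in hESCs, where 13.9% of all genes were higher and 16.1% lower. TNFRSF1B, a TNF receptor, rose by 4.47 and CFLAR, the decoy that blocks caspase-8, by 3.50 on the log2 scale (adjusted p = 2.39e-05 and 2.35e-05), while the adaptor FADD fell by 1.02. From HE to HPC, 4 fell in WT and 2 in the KO-labelled line, and TNFRSF1B fell in both (1.34 and 1.46, adjusted p = 0.0334 and 0.0197). Of 8 enzymes that set MCL1 turnover, none passed between HE and HPC. From hESC to HE, USP9X, which removes ubiquitin from MCL1, fell by 1.88 and DTX3 by 1.60 (adjusted p = 0.000732 and 0.0125).

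In a further list of 20 genes, whose common feature is not reported here, 4 rose and 7 fell between hESC and HE. GADD45A and BTG2 each rose by 2.25, and AEN and RRM2B each fell by 2.17. From HE to HPC, BTG2 rose by 2.10 in WT and 2.24 in the KO-labelled line (adjusted p = 0.00108 and 0.000663) and PERP fell by 1.52 and 1.91 (adjusted p = 0.0119 and 0.00321), and 3 of 20 passed in each genotype.

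Of 12 FOXO and stress-transcription genes, 3 rose and 1 fell between HE and HPC in each genotype. CITED2 rose by 1.49 in WT and 2.41 in the KO-labelled line (adjusted p = 0.0405 and 0.00389), and TXNIP by 1.29 and 2.13 (adjusted p = 0.0197 and 0.00159). KLF2, an endothelial shear-response factor, fell by 1.76 and 1.71 after rising by 6.19 between hESC and HE. Of 11 NF-kappaB genes, none passed between HE and HPC and 5 rose between hESC and HE, among them TNFAIP3 (2.73, adjusted p = 0.000827). Of 12 immediate early and stress genes, 5 rose between HE and HPC in each genotype, led by FOSB in WT (2.0) and EGR1 in the KO-labelled line (3.19), and 8 rose and 1 fell between hESC and HE.

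**Figure D5:**
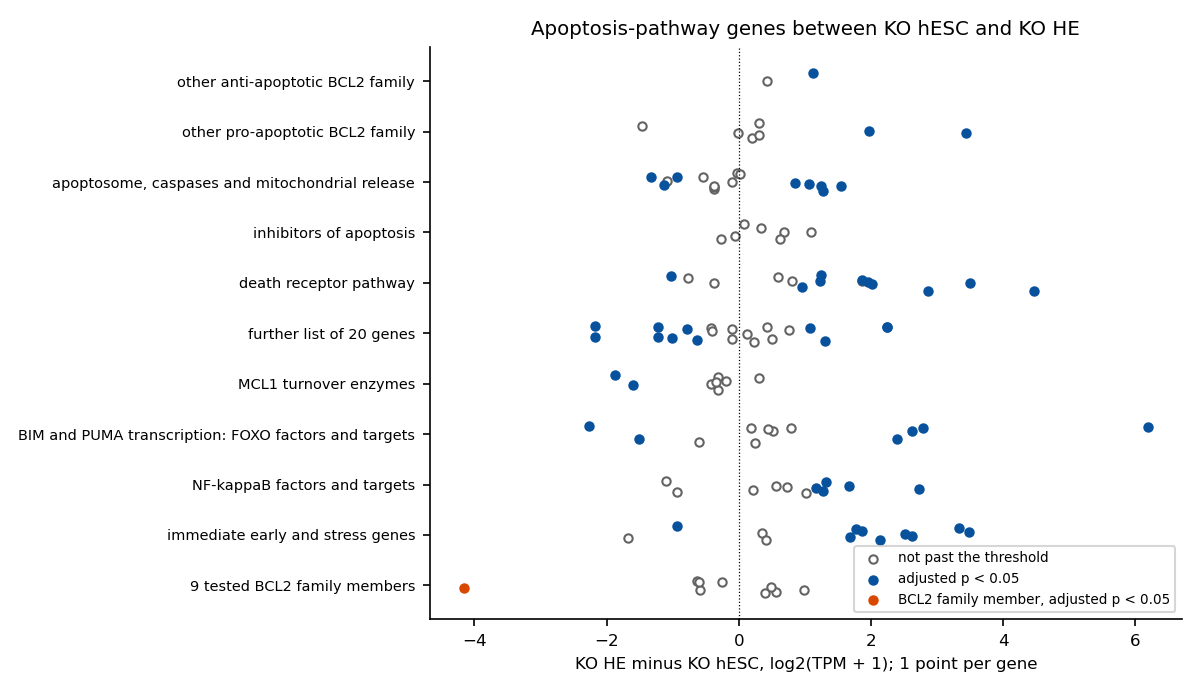
Difference in log2(TPM + 1) between KO-labelled HE and KO-labelled hESC (x axis) for each tested gene of 10 apoptosis-pathway lists and of the family (y axis); each point is 1 gene, filled points passed adjusted p under 0.05, and vertical scatter within a row has no meaning. PMAIP1, the filled point of the family, lies at -4.16, farther below 0 than any other point.

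Genes whose course over the 10 libraries was most like each member's were found among the 11923 tested genes whose mean TPM was 5 or more, by the mean absolute difference of centred log2(TPM + 1). MCL1 was followed most closely, by FRG1 (0.047), MTA2 and USP12. BAK1 was nearest to NCS1 (0.094), BAX to ZDHHC12 (0.103), BCL2 to CERS1 (0.104), BAD to RIMKLB (0.116), BID to PPP6C (0.123) and BCL2L11 to CHD9 (0.164). PMAIP1 was nearest to ERVMER34-1 (0.181), and BBC3 had the least close neighbour, CHD1L (0.217). These are descriptions over libraries that share their stage and group.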

How the data were processed

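The authors prepared TruSeq libraries, sequenced 1 end of each fragment, removed adapters by Trimmomatic and aligned to hg19 by Bowtie. RSEM and mm10 also stand in the submitters' processing notes, with no role given. They deposited TPM with 2 decimals for 56266 Ensembl genes in each library. Their Cuffdiff test needs alignments and was not repeated.

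The deposited TPM were transformed to log2(TPM + 1), and genes reaching 1 TPM in 2 or more libraries (21543) entered limma 3.58.1 under R 4.3.3, with trended moderation and 1 variance estimate for all 5 groups. The procedure was run on simulated data whose added changes were larger than any genotype difference of a member. That run does not show whether differences of the members' size would be found. Python 3.11.15, pandas 2.3.3 and numpy 2.4.6 did the rest. A Benjamini-Hochberg adjusted p under 0.05 was called. Members and lists were chosen with earlier results of these data known. The text names every member, GATA2 and BCL2L1, any list gene called between genotypes and, for stages, at most 2 rises and 2 falls per list, taken by size among called genes whose 4 library pairs had 1 direction. The stress genes set beside BBC3 were added after their values were seen. Some list genes that this rule takes are not reported here.

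Alternatives were a pseudocount of 0.1, no filter, each comparison's own libraries, quantile normalization, rescaling without mitochondrial genes, no trend, a replicate block and leaving out each replicate. Averaging over the other factor was added after seeing the data. Gene positions are from GENCODE on GRCh37 and promoters from RefSeq on GRCh38.p14. No coordinates were lifted between builds, and the printed promoter stretches were placed on GRCh37 by exact sequence match.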

Additional observations from a re-analysis of the deposited data

Results flagged for a closer look

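The genotype differences of 2 members had opposite signs at the 2 stages in every pair of libraries. The genotypes did not overlap for 30.3% of all genes in HE and 32.6% in HPC. The share of all genes with opposite signs of this kind is not given here, so the 2 members are a description only. BCL2L11 was lower in KO-labelled than in WT cells in all 4 pairs of HE libraries and higher in all 4 pairs of HPC libraries. The HPC difference minus the HE difference was 1.06 on the log2 scale (standard error 0.46, adjusted p = 0.835, limma interaction term). BID was higher in all 4 HE pairs and lower in all 4 HPC pairs, with a difference of -0.89 (standard error 0.36, adjusted p = 0.797, limma interaction term). With 1 replicate left out, this term for BID ran from -1.24 to -0.54. Neither passed the correction over 21543 genes. The closest pairs were 63.6 against 63.5 TPM for BID in HE and 18.2 against 18.1 TPM for BCL2L11 in HPC.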

How the results depend on the processing

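Counts of called genes between genotypes were small and moved with the settings. In HE the count was 4, and it was 13 with no filter, 12 without trend, 2 under the replicate block and 0 with the comparison's own libraries. In HPC it was 13, and it was 6 with a pseudocount of 0.1, 20 without trend, 3 under the replicate block, 5 averaged over both stages and 0 with its own libraries. No member passed between genotypes under any of them. From HE to HPC, 2134 genes passed in WT and 2745 in the KO-labelled line, 0 in either with its own libraries and 4395 averaged over both genotypes. From hESC to HPC, 6586 passed, and 4386 did with its own libraries. The own-library fits have fewer residual degrees of freedom.

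Members past the threshold between HE and HPC in WT numbered 2. They numbered 1 with a pseudocount of 0.1, rescaled without mitochondrial genes, without trend or under the replicate block (which lost BCL2), 0 with no filter, quantile normalization or own libraries, and 4 averaged over both genotypes. In the KO-labelled line they numbered 2, then 5 with quantile normalization, 3 without mitochondrial genes (adding MCL1), without trend (adding BCL2) or under the replicate block (adding BAK1), 0 with own libraries and 4 averaged. From hESC to HE the 1 member became 3 with quantile normalization, 2 without trend and 3 under the replicate block, which added BAX and BAK1. The cause was not tested. Same-numbered HE and HPC replicates share a number and, for replicate 2, a header tag of unknown meaning. Their deviations correlated at 0.123 between the HE groups, 0.055 between the HPC groups and -0.014 to 0.032 elsewhere.

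Leaving out each replicate gave 0 to 0 called genes between genotypes in HE, 0 to 9 in HPC, 0 to 5 for their difference, 849 to 1505 from HE to HPC in WT, 1257 to 1826 in the KO-labelled line, 4075 to 4431 from hESC to HE and 4180 to 5053 from hESC to HPC. Members past the threshold were 0 in WT, 0 to 1 in the KO-labelled line 1 to 2 from hESC to HE and 4 to 5 from hESC to HPC.

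Only differences that had not passed turned sign. With quantile normalization, hESC to HPC became 0.03 for BAX and 0.01 for BID (0.05 for BID without mitochondrial genes), and the stage difference of the genotype effect became -0.10 for BCL2 and 0.02 for BAX. Averaging gave -0.09 for BID between stages and, between genotypes, 0.06 for PMAIP1, -0.30 for BID, -0.09 for MCL1, -0.24 for BCL2L11 and 0.07 for BBC3. With a replicate left out, genotype differences in HE ran from -0.14 to 0.06 for BAK1, -0.31 to 1.09 for BBC3, -0.33 to 0.04 for PMAIP1 and -0.26 to 0.17 for BAD. Those in HPC ran from -0.01 to 0.12 for MCL1, -0.84 to 0.34 for BBC3 and -0.19 to 0.71 for PMAIP1. Stage changes ran from -0.26 to 0.64 for PMAIP1 in WT and -0.68 to 0.72 for BBC3 in the KO-labelled line. From hESC, BBC3 ran from -0.15 to 1.26 in HE and -0.01 to 1.17 in HPC, and BID from -0.40 to 0.30 in HPC. The difference of the genotype effects ran from -0.04 to 0.24 for BCL2, -0.40 to 0.19 for BAX, -1.34 to 0.07 for BBC3, -0.05 to 0.85 for PMAIP1 and -0.40 to 0.03 for BAD. TPM carries no depth, so what depth limits could not be measured.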
